A study of Mus musculus with 121 samples.

Results

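Condensin is described here through the RNA of its 8 genes, Smc2, Smc4, Ncapd2, Ncapg, Ncaph, Ncapd3, Ncapg2 and Ncaph2, in mouse erythroid cells before and after loss of the transcription factor YY1. The genes were chosen by name, as the subunits of condensin I and condensin II, with earlier results of these data known. They are 8 of the 55351 genes listed in an RNA-seq time series, 8 of 22493 in an RNA-seq table of untreated lines and 8 of 25208 in a table of nascent RNA, and all 8 had enough counts to be tested in each table.

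Condensins are ring-shaped ATPases that extrude loops of chromatin and fold each chromatid into a compact rod as cells enter mitosis. Both complexes are built on a pair of SMC proteins, SMC2 and SMC4, whose heads are closed by a kleisin subunit, which in turn carries a pair of HEAT-repeat subunits. Condensin I uses the kleisin NCAPH with NCAPD2 and NCAPG and reaches the chromosomes once the nuclear envelope has broken down. Condensin II uses NCAPH2 with NCAPD3 and NCAPG2 and is in the nucleus throughout interphase. Erythroid progenitors divide fast, and their nuclei condense strongly as they mature.

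All libraries came from G1E-ER4, a line of erythroid progenitors derived from mouse embryonic stem cells that lack GATA1 and carry a hormone-activated form of it. In the YY1-AID subline the YY1 protein carries an auxin-inducible degron, so that it is broken down once auxin is added. The time series holds asynchronous YY1-AID cells after 0, 4, 24 and 48 h of auxin, with 3 libraries each. TT-seq, which sequences RNA labelled with 4-thiouridine (500 µM for 5 min) and so reads RNA made during the pulse, holds asynchronous cells of the same subline, untreated or after 4 h of auxin, with 3 libraries each. The table of untreated lines holds 3 kinds of asynchronous cells with 2 libraries each: parental cells, the YY1-AID subline, and a further subline labelled YY1-AID subline3 or clone 3. The time series has no untreated libraries at 4, 24 or 48 h, so time in culture and auxin itself cannot be told apart from the loss of YY1. The labels do not say whether replicates were separate cultures, so p-values measure the spread between these libraries, which may be technical.

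Promoter sequences of the condensin genes are shown because 5 of the genes rose at 24 h and because the factor removed binds DNA. RefSeq (mouse build GRCm38.p6) gave 8 promoters for 7 of the 8 genes, each from 250 bases before to 50 bases after a start site, with 2 for Ncapd3 and with Smc4 not in the table used. They were searched on both strands for the YY1 core ANATGGCG and for a short YY1 core, AANATGG. The short core asks for a further A in front, so a match to ANATGGCG need not match it. The other strings were the CCAAT box CCAAT and the cell cycle homology region, written TTTGAA or TTCGAA. Both kinds of element, CCAAT boxes and cell cycle homology regions, are known from promoters of genes expressed in G2 and M phase. The 4 promoters printed belong to genes on which the results below turn, and capitals mark every match, written as it stands on the strand of the gene, so that CCAAT on the other strand reads ATTGG.
Ncapd2 (condensin I, chr6:125191537-125191836, minus strand): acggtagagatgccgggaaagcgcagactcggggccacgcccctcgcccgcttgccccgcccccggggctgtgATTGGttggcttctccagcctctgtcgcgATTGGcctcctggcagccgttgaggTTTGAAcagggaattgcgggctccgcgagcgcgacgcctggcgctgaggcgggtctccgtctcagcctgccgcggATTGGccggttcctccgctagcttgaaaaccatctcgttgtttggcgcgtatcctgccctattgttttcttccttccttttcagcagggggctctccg
Ncapg (condensin I, chr5:45669675-45669974, plus strand): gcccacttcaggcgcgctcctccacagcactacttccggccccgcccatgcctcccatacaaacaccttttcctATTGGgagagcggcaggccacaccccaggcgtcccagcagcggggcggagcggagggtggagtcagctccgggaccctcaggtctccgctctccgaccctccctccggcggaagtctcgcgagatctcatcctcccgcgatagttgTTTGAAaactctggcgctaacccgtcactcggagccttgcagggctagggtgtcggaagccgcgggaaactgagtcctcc
Ncapd3 (condensin II, upstream promoter, chr9:27029915-27030214, plus strand): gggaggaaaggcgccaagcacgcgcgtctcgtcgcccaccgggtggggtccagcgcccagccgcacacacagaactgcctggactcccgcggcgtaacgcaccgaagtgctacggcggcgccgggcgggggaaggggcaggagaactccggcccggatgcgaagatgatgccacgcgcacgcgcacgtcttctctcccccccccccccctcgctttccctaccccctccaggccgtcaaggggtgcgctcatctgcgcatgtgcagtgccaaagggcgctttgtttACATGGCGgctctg
Ncaph2 (condensin II, chr15:89355469-89355768, plus strand): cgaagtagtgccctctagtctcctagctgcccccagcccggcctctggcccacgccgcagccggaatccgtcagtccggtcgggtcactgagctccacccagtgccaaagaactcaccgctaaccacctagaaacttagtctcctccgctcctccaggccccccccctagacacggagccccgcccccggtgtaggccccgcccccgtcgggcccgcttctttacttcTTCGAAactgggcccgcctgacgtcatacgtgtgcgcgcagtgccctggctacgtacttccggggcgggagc

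The YY1 core ANATGGCG was found in 1 of the 8 condensin promoters, against 3.65% of the 32851 mouse promoters searched. This match lies in the upstream promoter of Ncapd3, at positions 37 to 44 counted from the start site. AANATGG was found in 1 of 8, that of Smc2, where it overlaps a TTTGAA match on the same strand, against 16.1% of all promoters. CCAAT was found in 3 of 8 (Smc2, Ncapd2 and Ncapg) against 37.4%, and Ncapd2 held 3 copies. TTTGAA was found in 5 of 8 (Smc2, Ncapd2, the downstream promoter of Ncapd3, Ncapg and Ncapg2) against 17.9%, and TTCGAA in 1 of 8 (Ncaph2) against 1.56%. The promoter of Ncaph held none of these letters. A match is a string of letters and not a bound site, and the absence of one says nothing about binding. The study's peak lists use the build mm9 and were not joined to these genes.

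Total counts per library, in M (mega counts), were 25.1 to 26.2 M in the time series, 35.2 to 44.9 M in the untreated lines and 30.2 to 53.5 M in TT-seq. The condensin genes had 2665 to 12514 counts per gene and library in the time series. Yy1 mRNA, which the degron does not target, did not pass the test after 4 h (log2 fold change 0.11 ± 0.09), 24 h (−0.09 ± 0.09) or 48 h (0.05 ± 0.09) of auxin, and the level of the protein was not measured in these tables. Levels are given in CPM, counts scaled to a common library total. Erythroid markers summed to 4698 to 5168 CPM at 0 h, 4352 to 4711 at 4 h, 4007 to 4038 at 24 h and 4877 to 5837 at 48 h. These sums hide single markers that moved in opposite directions, given below with the cell cycle lists. The adult globin genes Hba-a1 and Hbb-b1 were listed at 0 in all 6 TT-seq libraries. Both had counts in RNA-seq of the untreated lines, so the 0 in TT-seq may reflect how reads were assigned, which was not tested. Of 6 pluripotency markers 5 were at 0 counts in all 12 time series libraries. Megakaryocyte markers summed to between 165.0 and 192.8 CPM at 0 h and to between 512.9 and 537.5 CPM at 48 h.

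After 24 h of auxin the RNA of 5 of the 8 condensin genes had risen, by 13.5% to 29.1%, and none had fallen. Ncaph2, Ncapg and Ncaph rose most, followed by Ncapd3 and Smc4. After 48 h the same 5 genes were above 0 h and Ncapd2, the HEAT-repeat subunit of condensin I, was 16.9% below it. Smc2 and Ncapg2 did not pass the test at any time. Changes are log2 fold changes ± standard error (SE) from edgeR's quasi-likelihood test, and a gene was called when its p-value, adjusted by Benjamini-Hochberg over all genes tested, was under 0.05. A large part of the transcriptome differed between 24 and 0 h: 43.0% of the 15157 genes tested were called, 21.5% higher and 21.5% lower, beside 5 of 8 condensin genes, all higher. At 48 h the share was 49.5% (24.9% higher and 24.6% lower), beside 5 condensin genes higher and 1 lower. The median log2 fold change of the 8 genes was 0.18 at 24 h and 0.19 at 48 h, against 0.03 at both times over all genes. In bulk RNA, fewer cells in a given cell cycle phase and less RNA per cell cannot be told apart. Libraries did not overlap with 0 h for 6 of the 8 condensin genes at 24 h and 6 at 48 h, against 52.3% and 57.3% of all genes. The later times are compared with the same 0 h libraries, so their fold changes are not independent of each other.

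**Figure D1:**
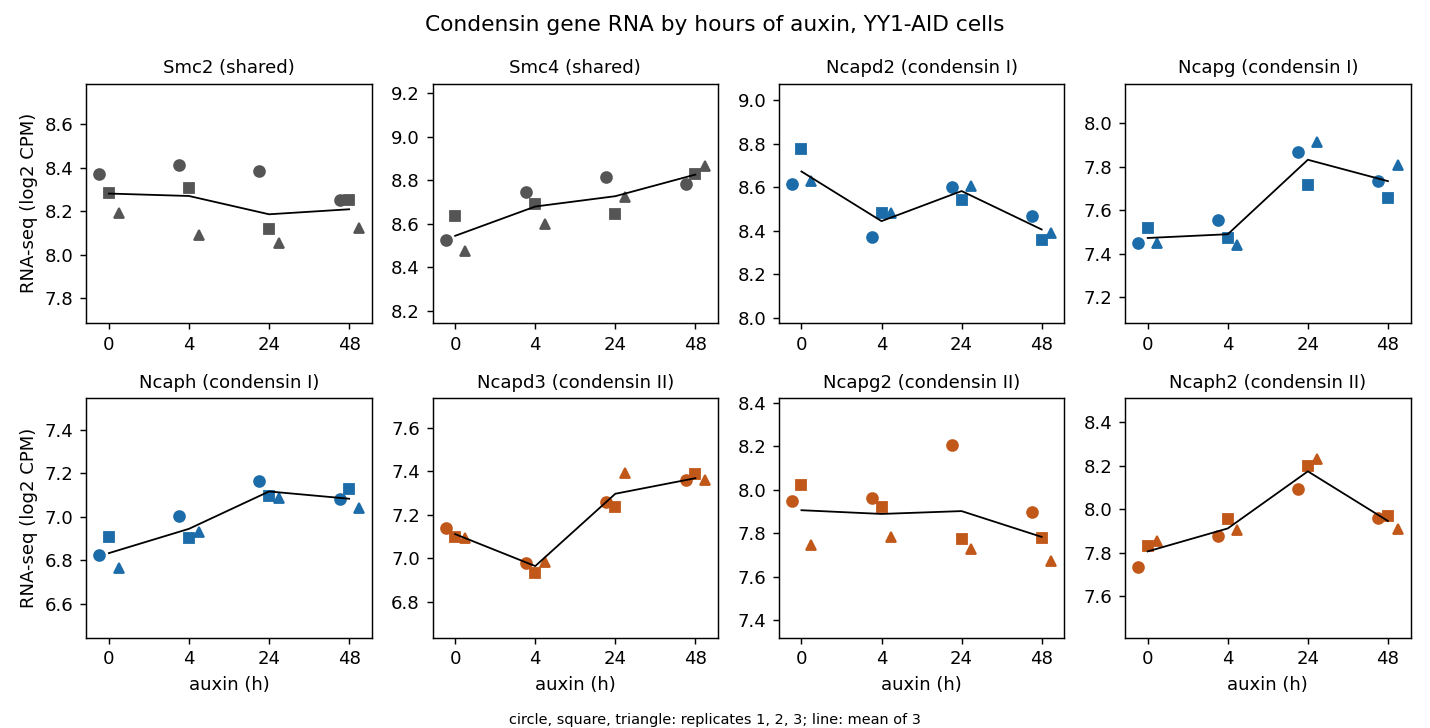
RNA-seq level of each condensin gene (log2 CPM, y axis, each panel spanning the same range) against hours of auxin (x axis, categories not to scale). Points are single libraries, with circles, squares and triangles for replicates 1, 2 and 3, and lines join the means of 3. Ncapg, Ncaph, Ncapd3 and Ncaph2 sit higher at 24 h than at 0 h in every library, while Smc2 and Ncapg2 overlap at all times.

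Among the shared ATPase subunits, Smc4 rose and Smc2 did not. Smc4 stood at 369, 398 and 356 CPM in the 3 libraries at 0 h, at 430, 414 and 388 at 4 h, at 450, 400 and 423 at 24 h, and at 441, 456 and 467 at 48 h. The libraries at 24 and 48 h all lay above those at 0 h, at 24 h by a small margin, and those at 4 h overlapped 0 h. Smc4 was 0.18 ± 0.06 higher at 24 h (edgeR, adjusted p = 0.0304) and 0.28 ± 0.06 higher at 48 h (adjusted p = 0.0021). At 24 h the call was lost without 0 h replicate 1 or 3 or without 24 h replicate 1 or 3, with values of 0.13 to 0.18. Smc2 stood at 331, 312 and 292 CPM at 0 h, 341, 317 and 272 at 4 h, 334, 278 and 266 at 24 h, and 305, 305 and 279 at 48 h. Its libraries overlapped at every time, and its log2 fold changes against 0 h were −0.01 ± 0.09 at 4 h, −0.09 ± 0.09 at 24 h and −0.07 ± 0.09 at 48 h. The log2 ratio of Smc4 to Smc2 counts, read only for its change because the lengths of the mRNAs enter it, was 0.26 ± 0.10 (SD, n = 3) at 0 h, 0.41 ± 0.09 at 4 h, 0.54 ± 0.12 at 24 h and 0.62 ± 0.11 at 48 h. In untreated libraries 1 and 2 the ratio was 1.08 and 0.48 in parental cells, 1.08 and 0.41 in the YY1-AID subline and 0.44 and 0.35 in clone 3. It thus also varied widely between libraries without auxin. The ratio was chosen after its values were seen and was not tested.

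Within condensin I, the kleisin Ncaph and the HEAT-repeat subunit Ncapg rose at 24 and 48 h, while the other HEAT-repeat subunit, Ncapd2, fell at 4 and 48 h. Ncapg stood at 175, 183 and 175 CPM at 0 h, 188, 177 and 173 at 4 h, 233, 210 and 241 at 24 h, and 213, 202 and 224 at 48 h. All 6 libraries at 24 and 48 h lay above all 6 at 0 and 4 h. Ncapg was 0.36 ± 0.06 higher at 24 h (edgeR, adjusted p = 0.00048), or 28.5%, and 0.26 ± 0.06 higher at 48 h (adjusted p = 0.0035). Ncaph stood at 113, 120 and 109 CPM at 0 h, 128, 120 and 122 at 4 h, 143, 137 and 136 at 24 h, and 135, 140 and 131 at 48 h. Its libraries at 24 and 48 h lay above all those at 0 and 4 h, by 0.28 ± 0.06 at 24 h (edgeR, adjusted p = 0.0011) and 0.25 ± 0.06 at 48 h (adjusted p = 0.0020) relative to 0 h. Ncapd2 stood at 391, 438 and 396 CPM at 0 h, 331, 357 and 357 at 4 h, 388, 372 and 390 at 24 h, and 354, 328 and 336 at 48 h.

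Ncapd2 thus was lowest at 4 and 48 h, where no library reached the lowest one at 0 h, and at 24 h its libraries lay just under those at 0 h. Its fall at 4 h was 0.23 on the log2 scale (−0.23 ± 0.06, edgeR, adjusted p = 0.0324), or 14.7%, and it was the only condensin gene called at 4 h. Among all genes 7.28% were called at 4 h, 3.14% higher and 4.14% lower, so 1 of 8 is near that background. The call was lost without 0 h replicate 2 or without any 1 of the 4 h libraries, with values of −0.27 to −0.19. At 24 h Ncapd2 did not pass the test (−0.09 ± 0.06, adjusted p = 0.228), and at 48 h it was lower (−0.27 ± 0.06, adjusted p = 0.0018). The log2 ratio of Ncapd2 counts to those of Ncapg and Ncaph together was 0.44, 0.53 and 0.48 at 0 h, 0.06, 0.27 and 0.28 at 4 h, 0.04, 0.10 and 0.05 at 24 h, and 0.02, −0.06 and −0.08 at 48 h. Every library with auxin lay below every library at 0 h on this ratio, which was chosen after its values were seen and was not tested. In untreated libraries 1 and 2 the ratio was 0.82 and 0.42 in parental cells, 1.04 and 0.54 in the YY1-AID subline and 0.76 and 0.56 in clone 3. It thus also varied widely between libraries without auxin.

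In condensin II, the kleisin Ncaph2 rose to a peak at 24 h, the HEAT-repeat subunit Ncapd3 went from a low at 4 h to its highest level at 48 h, and Ncapg2 did not change detectably. Ncaph2 stood at 213, 228 and 231 CPM at 0 h, 235, 248 and 240 at 4 h, 273, 294 and 300 at 24 h, and 249, 251 and 240 at 48 h. The libraries at 24 h lay above all others, and those at 4 and 48 h lay between them and 0 h. Ncaph2 was 0.37 ± 0.05 higher at 24 h (edgeR, adjusted p = 0.00013), which is 29.1%, and 0.14 ± 0.05 higher at 48 h (adjusted p = 0.0477). The 48 h call was lost when any 1 of the 6 libraries at 0 and 48 h was left out, with values of 0.09 to 0.16. Ncapd3 stood at 141, 137 and 136 CPM at 0 h, 126, 122 and 126 at 4 h, 153, 151 and 168 at 24 h, and 164, 167 and 164 at 48 h.

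All 3 Ncapd3 libraries at 4 h lay below the 3 at 0 h, and all 6 at 24 and 48 h lay above both. At 4 h its log2 fold change was −0.15 ± 0.05, which edgeR did not call (adjusted p = 0.113) and DESeq2 did (adjusted p = 0.0267). At 24 h it was 0.19 ± 0.05 higher (edgeR, adjusted p = 0.0109), a call lost without 24 h replicate 3 (0.13), and at 48 h 0.26 ± 0.05 higher (adjusted p = 0.0011). Ncapg2, the HEAT-repeat partner of Ncapd3 in the same complex, stood at 247, 260 and 215 CPM at 0 h, 250, 242 and 220 at 4 h, 295, 219 and 212 at 24 h, and 239, 219 and 204 at 48 h. The 24 h value rests on replicate 1, which lay above all other libraries of the gene, while replicates 2 and 3 lay within or below the range at 0 h. Ncapg2 changed by −0.02 ± 0.11 at 4 h, 0.01 ± 0.11 at 24 h and −0.12 ± 0.11 at 48 h, with the widest SE of the 8 genes.

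At 4 h the condensin genes other than Ncapd2 did not pass the test. Smc4 had a log2 fold change of 0.13 ± 0.06 (adjusted p = 0.231), Ncaph of 0.11 ± 0.06 (adjusted p = 0.270) and Ncaph2 of 0.11 ± 0.05 (adjusted p = 0.290), and Ncapg of 0.02 ± 0.06. Libraries at 0 and 4 h did not overlap for 3 of the 8 genes, Ncapd2, Ncapd3 and Ncaph2, against 27.2% of all genes.

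The time points were also compared with each other. Between 4 and 24 h, 4 condensin genes rose, against 33.6% of all genes called in either direction and 15.9% called higher. These were Ncapg (0.34 ± 0.06, edgeR, adjusted p = 0.0010), Ncapd3 (0.33 ± 0.05, adjusted p = 0.00033), Ncaph2 (0.26 ± 0.05, adjusted p = 0.0022) and Ncaph (0.17 ± 0.06, adjusted p = 0.0288). The Ncaph call was lost without 24 h replicate 1 or 2 or without 4 h replicate 2 or 3, with values of 0.16 to 0.18. Between 24 and 48 h only Ncaph2 was called, and it fell by 0.23 on the log2 scale (−0.23 ± 0.05, edgeR, adjusted p = 0.0267), against 5.87% of all genes called and 2.84% called lower. That call was lost without 24 h replicate 2 or 3 or without 48 h replicate 1 or 3, with values of −0.24 to −0.20. Ncapd2 had −0.18 ± 0.06 between 24 and 48 h (edgeR, adjusted p = 0.100).

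**Figure D2:**
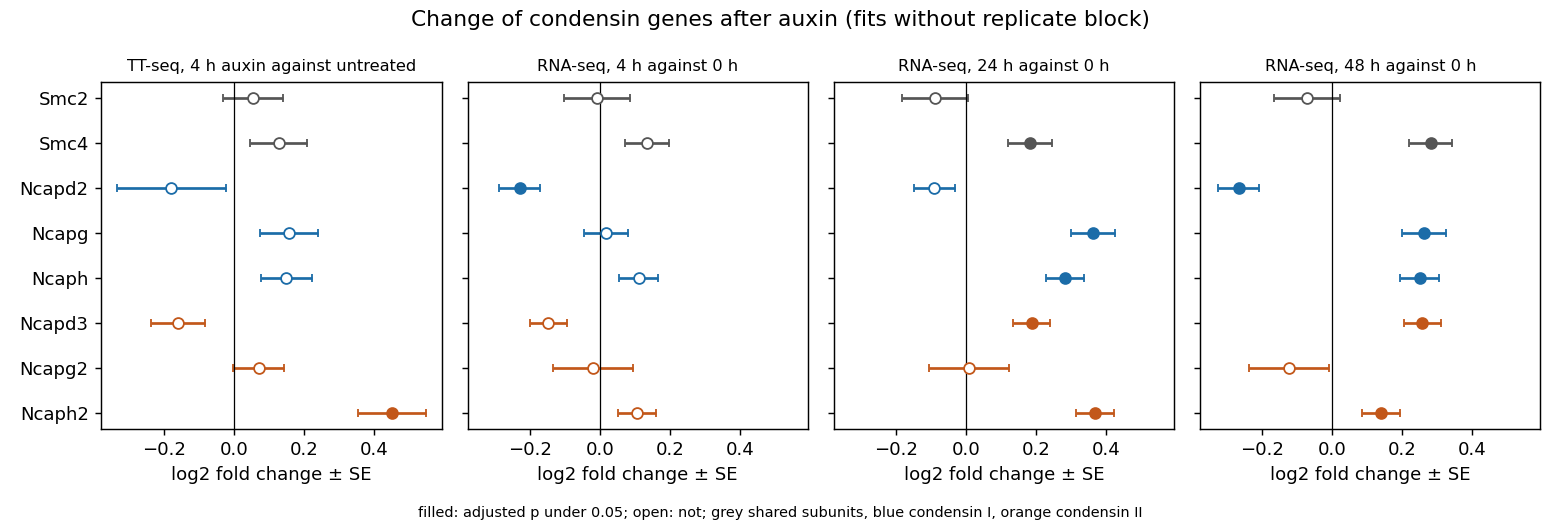
Log2 fold change ± SE (x axis) of each condensin gene (y axis) in TT-seq after 4 h of auxin and in RNA-seq after 4, 24 and 48 h, from fits without a replicate term. Filled points passed an adjusted p of 0.05, and colours mark shared subunits (grey), condensin I (blue) and condensin II (orange); Ncaph2 is filled in TT-seq (0.45) and at 24 h (0.37), and Ncapd2 lies left of 0 in all 4 panels.

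Nascent RNA was read to see which genes change in their synthesis within 4 h of auxin. Ncaph2, the condensin II kleisin, gained most, with 36.9% more nascent RNA. It stood at 56.8, 52.0 and 55.7 CPM in untreated libraries 1, 2 and 3 and at 78.5, 65.9 and 80.8 CPM in auxin libraries 1, 2 and 3. All 3 auxin libraries lay above all 3 untreated ones, and the log2 fold change was 0.45 ± 0.10 (edgeR, adjusted p = 0.0257). Ncaph2 was the 1 condensin gene called, against 9.20% of the 11218 genes tested, 2.11% higher and 7.09% lower. Without untreated replicate 1, 2 or 3 or auxin replicate 1 or 3 the call was lost although the value stayed between 0.40 and 0.48, and without auxin replicate 2 it held at 0.54. RefSeq places Sco2 and Tymp over Ncaph2, and no source used here gives the strand setting of the counts, so reads of overlapping genes cannot be told apart. Sco2 was listed at 0 in all 6 TT-seq libraries and Tymp at 1 to 5 counts. In the time series Sco2 had 358 to 529 counts, so its 0 in TT-seq may reflect how reads were assigned, which was not tested. Lmf2, within 1000 bases of Ncaph2, had 244 to 416 counts and did not pass the test (0.29 ± 0.21, edgeR, adjusted p = 0.443). With the replicate number as a term of the fit Lmf2 was higher (0.28 ± 0.09, edgeR, adjusted p = 0.0074). Lcorl overlaps Ncapg in the same annotation, with 6689 to 19286 counts and a change of −0.12 ± 0.10 (edgeR, adjusted p = 0.543). With the replicate number in the fit Lcorl was lower (−0.12 ± 0.04, edgeR, adjusted p = 0.0052).

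Libraries of the same replicate number varied together in TT-seq, and with the number as a term of the fit (a replicate block) 6 of the 8 condensin genes were called, 4 higher and 2 lower. In that fit 47.9% of all genes were called, 22.7% higher and 25.3% lower. The spread of a gene is estimated in edgeR partly from all genes. With so few libraries, the p-values of that fit rest mostly on this shared estimate. Ncapd2 stood at 119, 89.4 and 99.3 CPM untreated and at 110, 74.4 and 87.7 CPM with auxin in libraries 1, 2 and 3. It was lower with auxin within each number, although the groups overlapped, and its log2 fold change was −0.18 ± 0.16 without the block (edgeR, adjusted p = 0.557) and −0.19 ± 0.04 with it (adjusted p = 3.61e-05). Ncapd3 stood at 126, 125 and 121 CPM untreated and at 109, 118 and 106 CPM with auxin. Its groups did not overlap, and the change was −0.16 ± 0.08 without the block (edgeR, adjusted p = 0.261) and −0.16 ± 0.04 with it (adjusted p = 0.00040). Ncapg, Ncaph and Smc4 were higher with the block, by 0.16 ± 0.04, 0.15 ± 0.05 and 0.13 ± 0.04 (edgeR, adjusted p = 0.00046, 0.0031 and 0.0018), and were not called without it.

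Ncapg stood at 89.9, 95.3 and 85.6 CPM untreated and at 101, 107 and 94.9 CPM with auxin, Ncaph at 54.8, 52.2 and 51.5 and at 59.1, 57.6 and 59.2 CPM. Smc4 stood at 270, 256 and 245 CPM untreated and at 291, 284 and 268 CPM with auxin. All 3 were higher with auxin within each number, and only for Ncaph of the 3 did the groups not overlap. Over all 8 members the groups did not overlap for 3, Ncapd3, Ncaph and Ncaph2, against 29.3% of all genes. Smc2 (0.06 ± 0.09) and Ncapg2 (0.07 ± 0.07) were called in neither fit. Ribosomal RNA of the 45S precursor took 22.2% to 38.8% of the counts and was highest in the libraries numbered 1 of both groups. Library sizes set from the Drosophila spike-in RNA left 0 condensin genes and 1 of all genes called (0.00891%). With spike-in sizes and the block 3 condensin genes were called, against 31.5% of all genes, 10.1% higher and 21.5% lower. In that fit Ncaph2 was higher (0.41 ± 0.08, adjusted p = 7.43e-07) and Ncapd2 (−0.22 ± 0.07, adjusted p = 0.0075) and Ncapd3 lower. The sign at 4 h was the same in RNA-seq and TT-seq, which share no library, for 6 of 8 condensin genes, all but Smc2 and Ncapg2, and for 74.3% of the 10110 genes tested in both.

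**Figure D3:**
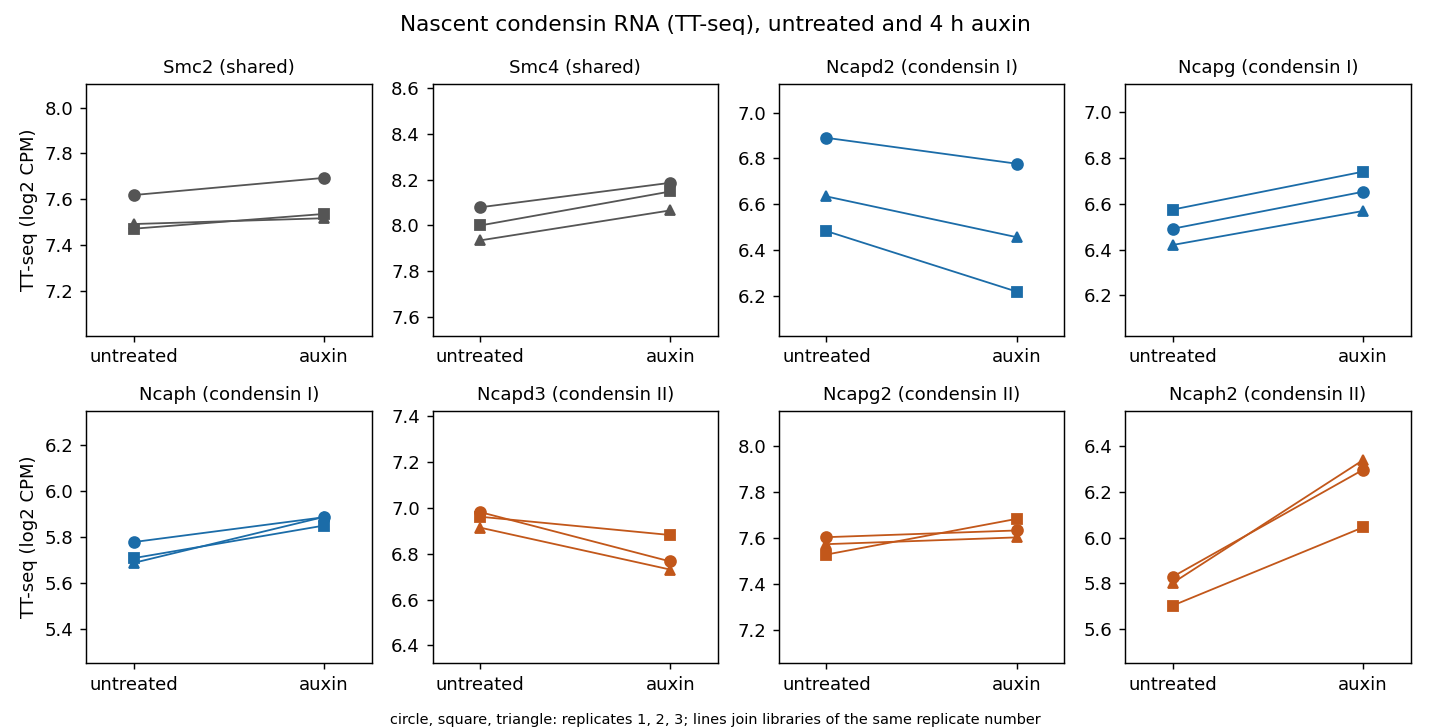
TT-seq level of each condensin gene (log2 CPM, y axis, each panel spanning the same range) in untreated cells and after 4 h of auxin (x axis). Points are single libraries and lines join libraries of the same replicate number (circle 1, square 2, triangle 3). All 3 lines go up for Ncaph2 and down for Ncapd2 and Ncapd3.

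The untreated lines were sequenced to compare the edited sublines with their parental cells. No condensin gene was called in any of the 3 comparisons with edgeR, and none had an unadjusted p under 0.05 in the fit without a replicate term. Among the 10892 genes tested, 0% were called between the YY1-AID subline and parental cells and 0% between clone 3 and parental cells, with 557 and 534 genes at an unadjusted p under 0.05. Between clone 3 and the YY1-AID subline 0.0826% were called (572 genes unadjusted). DESeq2 called 192, 153 and 208 of all genes in the same comparisons and again no condensin gene. Libraries of the same number varied together here too. With the replicate block, 177 genes were called higher and 261 lower in the YY1-AID subline than in parental cells. For clone 3 these were 457 and 223 against parental cells and 483 and 190 against the YY1-AID subline. No condensin gene was called with the block. For every condensin gene the libraries numbered 1 and 2 of a line differed. Smc2 stood at 88.7 and 247 CPM in parental libraries 1 and 2, at 84.7 and 291 CPM in the YY1-AID subline, and at 175 and 304 CPM in clone 3.

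Smc2, Smc4, Ncapd2, Ncapd3, Ncapg, Ncapg2 and Ncaph were lower in the libraries numbered 1 of all 3 lines, and Ncaph2 was higher there. Smc4 stood at 188 and 345 CPM in parental libraries 1 and 2, at 179 and 388 CPM in the YY1-AID subline, and at 237 and 389 CPM in clone 3. Ncaph2 went the other way, with 305 and 227 CPM in parental cells, 319 and 237 CPM in the YY1-AID subline, and 282 and 242 CPM in clone 3. Ncapd2 stood closer between the numbers, with 343 and 364 CPM, 355 and 387 CPM, and 364 and 408 CPM in the same order. Within a number, Smc2 was higher in clone 3 than in parental cells by 0.98 (number 1) and 0.30 (number 2) on the log2 scale, and the pooled difference was 0.51 ± 0.74. Against the YY1-AID subline the Smc2 difference of clone 3 was 1.04 within number 1 and 0.06 within number 2, and it was 0.35 ± 0.74 pooled. The difference between the lines in Ncapd2 was 0.05 and 0.09 for the YY1-AID subline and 0.09 and 0.17 for clone 3 against parental cells, within numbers 1 and 2. The labels do not say what the numbers stand for, and the SEs of the condensin genes, 0.16 to 0.74, include the difference between them.

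**Figure D4:**
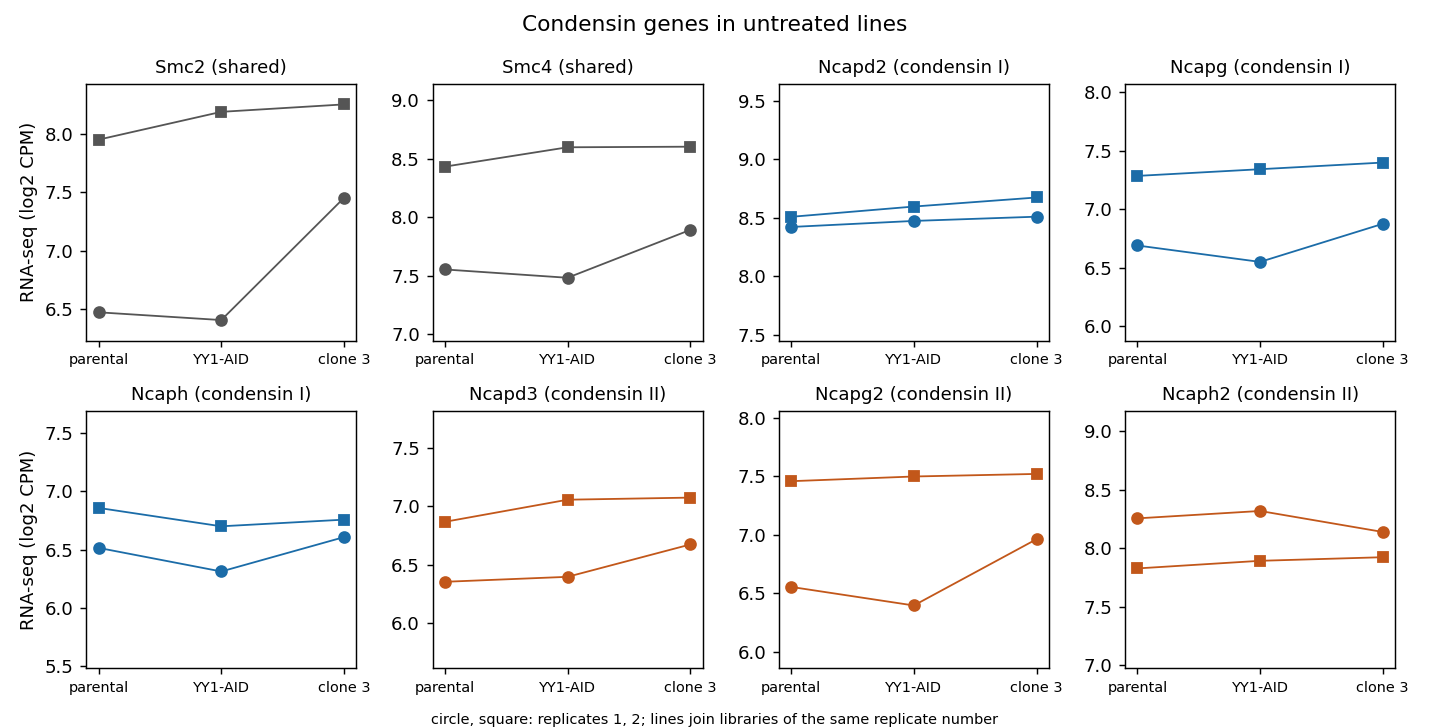
RNA-seq level of each condensin gene (log2 CPM, y axis, each panel spanning the same range) in parental cells, in the YY1-AID subline and in clone 3, all untreated (x axis). Points are single libraries and lines join libraries of the same replicate number (circle 1, square 2). The circles lie below the squares for every gene except Ncaph2, and Smc2 has the widest gap.

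Across the 12 time series libraries 5 members, Smc4, Ncapd3, Ncapg, Ncaph and Ncaph2, varied together, and so did Smc2 and Ncapg2. Pearson's r of log2 CPM, given as a description because the libraries share their time points, was highest for Ncapg with Ncaph (0.84), Smc4 with Ncaph (0.83), Ncapd3 with Ncapg (0.81) and Smc2 with Ncapg2 (0.81). Among the 5 it ranged from 0.37 to 0.84, and over all pairs it was lowest for Smc4 with Ncapd2 (−0.58). The 5 are the genes called higher at 24 and 48 h in these same libraries, so their r follows in part from that rise. Ncapg and Ncaph followed the mean of the 7 other members most closely (r = 0.77 and 0.76), and Ncapd2 (−0.20) and Smc2 (−0.07) least. The genes whose level was most like the mean of the 8 members, after each was scaled over the 12 libraries, were Nemp1 (r = 0.94), Gvin-ps1, Xk, Cplane1 and Llgl1 (r = 0.90 each), among 8885 genes compared. Nemp1 encodes a protein of the inner nuclear membrane and Xk the carrier of the Kx blood group antigen of red cells. Nemp1 had a log2 fold change of 0.46 ± 0.12 at 24 h and 0.34 ± 0.12 at 48 h (edgeR, adjusted p = 0.0060 and 0.0268), and Xk of 0.37 ± 0.09 and 0.36 ± 0.09 (adjusted p = 0.0068 and 0.0062). Both genes were picked by likeness over these same libraries, so a rise at these times follows from the choice and is no separate result.

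Related gene lists were read beside the condensin genes. Of all genes tested, 21.5% were called higher and 21.5% lower at 24 h, and 24.9% and 24.6% at 48 h. Of 20 mitotic chromosome partners, such as topoisomerase II and the chromosomal passenger complex, 6 rose and 5 fell at 24 h, and 5 rose and 7 fell at 48 h. Sgo1, which protects centromeric cohesion, was 0.86 ± 0.07 higher and the histone chaperone gene Set lower (−0.60 ± 0.07) at 24 h, and Ccnb2, a mitotic cyclin, was 0.50 ± 0.07 higher. Of 13 cohesin genes 3 rose and 3 fell at 24 h, with the kleisin Rad21 higher (0.31 ± 0.05) and Stag1 lower (−0.47 ± 0.10). Of 6 genes of the third SMC complex, SMC5/6, 3 rose and 1 fell, with Smc5 higher (0.60 ± 0.12). The list medians at 24 h were 0.02 for the partners, 0.01 for cohesin and 0.17 for SMC5/6, beside 0.18 for condensin.

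Cell cycle lists were read at the same times, beside the same shares of all genes. Of 20 S phase genes 13 fell and 2 rose at 24 h (median −0.30), and 16 fell and none rose at 48 h (median −0.56), with Mcm5, a subunit of the replicative helicase, at −0.88 ± 0.06 and −1.20 ± 0.06. Of 25 G2 and M phase genes 10 rose and 3 fell at 24 h (median 0.12), and 7 rose and 6 fell at 48 h (median 0.06), with Ckap2 at 0.57 ± 0.06 and 0.48 ± 0.06. The G2 and M phase counts at 48 h are near the shares of all genes. Of 12 erythroid markers 11 were tested. Of these 4 rose and 6 fell at 24 h, and 4 rose and 5 fell at 48 h. Of 8 megakaryocyte markers 7 were tested and 4 rose at both times. The part of these markers and of the cell cycle lists in the condensin result was not tested. In TT-seq without the block, the 3 calls among the partners, cohesin and the G2 and M phase genes were Sgo1 (0.49 ± 0.09), Rad21 (0.34 ± 0.07) and the mitotic kinesin Kif11 (−0.39 ± 0.08), with edgeR adjusted p = 0.0123, 0.0249 and 0.0244, and no S phase gene was called. With the block 4 partners were higher and 6 lower, 2 cohesin genes higher and 5 lower, 2 SMC5/6 genes higher, 3 G2 and M phase genes higher and 4 lower, and 4 S phase genes higher and 7 lower, beside the 47.9% of all genes called in that fit.

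**Figure D5:**
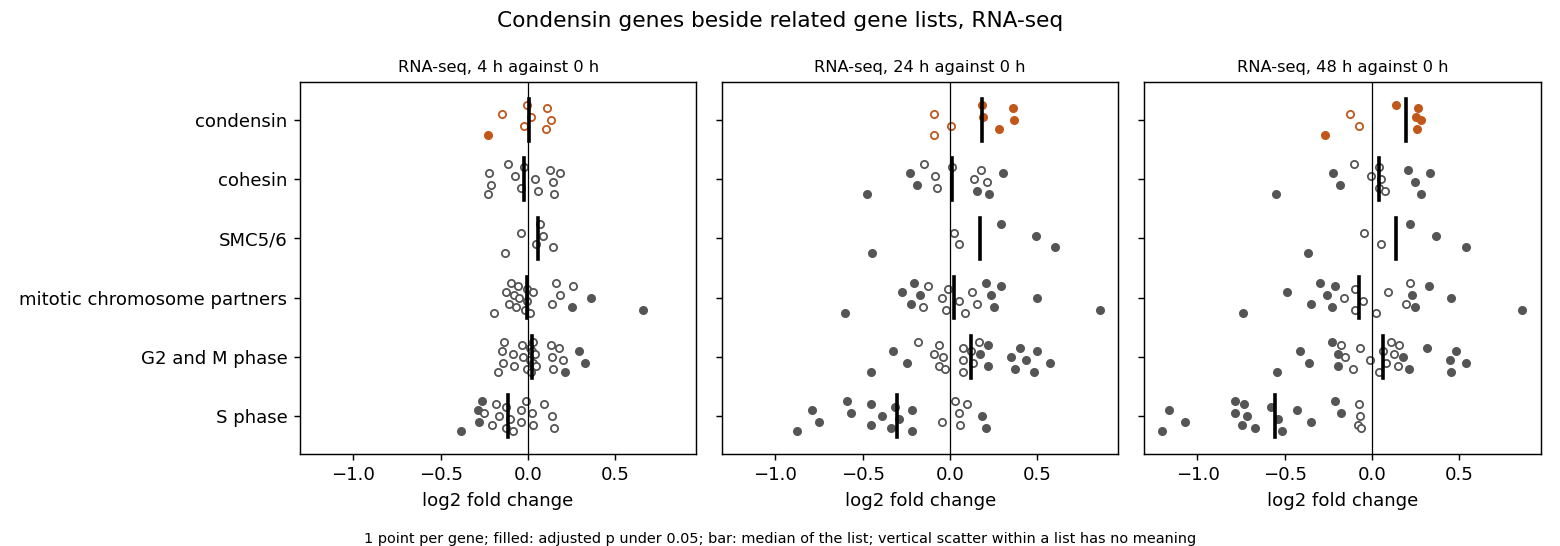
Log2 fold changes (x axis) of the genes of 6 lists (y axis) in RNA-seq after 4, 24 and 48 h of auxin against 0 h. Each point is 1 gene, filled where the adjusted p was under 0.05, bars are list medians, and condensin is in orange; at 48 h the condensin median is 0.19 and the S phase median −0.56.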

How the data were processed

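The data are 18 RNA-seq and 6 TT-seq libraries of a series of 121 samples. The RNA-seq tables hold estimated counts, deposited by the authors as whole numbers per gene, with Salmon 0.13.1, DESeq2 and mm9 named in the submitters' processing notes. The TT-seq tables hold deposited counts of mouse genes and of a Drosophila spike-in (500 ng added to 100 µg of cell RNA, as the labels state), with Trim Galore 0.6.10, STAR, SAMtools, mm9 and dm6 in the same notes. No source used here gives the transcript set, the strand setting or whether intronic reads were counted. Rows without a gene stayed out; in TT-seq these were mostly reads without a feature (17.2% to 22.2%) and ambiguous ones (0.391% to 0.529%).

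Each table was analysed as 1 fit over its groups in edgeR 4.0.16 (R 4.3.3) with TMM factors, filterByExpr with a minimum count of 10 and the quasi-likelihood F-test, adjusted by Benjamini-Hochberg over all genes tested, with a threshold of 0.05. SE is the log2 fold change divided by the square root of F. CPM uses TMM-scaled library sizes, and log2 CPM a prior count of 2. The code was tested on simulated data. Alternatives were DESeq2 1.42.0, RLE factors, no filter, only the groups compared, spike-in library sizes, a replicate block and leaving out each library.

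Pairing was checked by correlating deviations from group means. In TT-seq same-numbered libraries gave r of 0.69 to 0.91 and others at most −0.04, so the numbers pair the libraries, from the data and not from the labels. The same held for the 0 and 4 h libraries of the time series (0.18 to 0.34; others at most −0.04), where the block changed no condensin call, and for no other 2 times. The genes named are the 8 members, Yy1, up to 3 called genes per list and comparison with the smallest p, and the 5 genes most like the members. Genes beside the members in RefSeq and the ratios were added after their values were seen. The members and lists were chosen with earlier results of these data known. ChIP-seq and Micro-C files were not used here.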

Additional observations from a re-analysis of the deposited data

Results flagged for a closer look

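The change against 0 h of 4 condensin genes differed between 4 and 24 h by the test of the difference itself. This is the contrast of the 2 times already given above, since both share the 0 h libraries. In it 33.6% of all genes were called, 15.9% higher. Time in culture cannot be told apart from auxin here. The difference in log2 fold change was 0.334 for Ncapd3, 0.344 for Ncapg, 0.172 for Ncaph and 0.263 for Ncaph2 (edgeR, adjusted p = 0.00033, 0.0010, 0.0288 and 0.0022), and the 3 libraries at 24 h lay above the 3 at 4 h for each. Between 24 and 48 h the change of Ncaph2 differed by −0.229 (edgeR, adjusted p = 0.0267), with all 3 libraries at 48 h below the 3 at 24 h. Of all genes 5.87% were called between these times, 2.84% lower. Groups of 2 or 3 libraries are too small to single out a sample that lies far from the others.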

How the results depend on the processing

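Of 760 recomputed values for single condensin genes, 651 kept their direction and their side of the threshold, 38 lost a call, 9 gained one and 62 changed sign, all 62 uncalled and most in the untreated lines when 1 library was left out. The number of condensin genes called at 4 h was 2 with DESeq2 and 0 to 1 with a library left out, at 24 h 3 without the filter on low counts and 3 to 5 with a library left out, and between 24 and 48 h 2 with DESeq2, 0 without the filter, 0 with only the 2 groups compared and 0 to 1 with a library left out. In TT-seq it was 6 with the replicate block, 0 with spike-in library sizes, 3 with both, 0 without the libraries numbered 1 (chosen after seeing the data) and 0 to 1 with a library left out; the cause was not tested. Smc4 at 24 h was also uncalled with only 2 groups (0.19) or no filter (0.17), Ncapd3 at 24 h without the filter (0.17), Ncaph2 at 48 h with RLE factors (0.13) or no filter (0.12) and Ncaph between 4 and 24 h without the filter (0.17).

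Ncapg2 at 24 h changed sign with DESeq2 and RLE factors (−0.0064), no filter (−0.0061) and the replicate block (−0.00077), and Smc2 in TT-seq with spike-in sizes (−0.0069). With a library left out, the log2 fold changes of genes whose sign changed ranged as follows. At 4 h they were −0.097 to 0.066 for Smc2, −0.034 to 0.031 for Ncapg and −0.11 to 0.024 for Ncapg2. Ncapg2 ranged from −0.17 to 0.086 at 24 h, −0.13 to 0.12 between 4 and 24 h and −0.22 to 0.030 between 24 and 48 h, Smc2 from −0.051 to 0.12 between 24 and 48 h and −0.0024 to 0.10 in TT-seq. For the YY1-AID subline against parental cells the ranges were −0.99 to 1.08 for Smc2, −0.58 to 0.59 for Smc4, −0.24 to 0.42 for Ncapd3, −0.47 to 0.33 for Ncapg, −0.68 to 0.49 for Ncapg2, −0.38 to 0.0042 for Ncaph and −0.16 to 0.30 for Ncaph2. For clone 3 against parental cells they were −0.041 to 1.43 for Smc2, −0.16 to 0.74 for Smc4, −0.14 to 0.47 for Ncapg, −0.19 to 0.71 for Ncapg2, −0.17 to 0.17 for Ncaph and −0.22 to 0.21 for Ncaph2. For clone 3 against the YY1-AID subline they were −0.28 to 1.501 for Smc2, −0.31 to 0.81 for Smc4, −0.023 to 0.17 for Ncapd2, −0.17 to 0.49 for Ncapd3, −0.18 to 0.61 for Ncapg, −0.23 to 0.87 for Ncapg2, −0.014 to 0.37 for Ncaph and −0.28 to 0.14 for Ncaph2. With 1 library left in a group it is assumed to vary like the other groups.

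In the time series same-numbered libraries gave r of −0.23 to 0.37, all above 0.1 between 0 and 4 h alone, and the replicate block left the number of condensin genes called as it was, with 1493, 6894 and 7868 of all genes at 4, 24 and 48 h. In the untreated lines (r 0.90 to 0.95, 2 libraries each) it called 438, 680 and 673 of all genes and no condensin gene, the lowest adjusted p being 0.0786 for Smc2 in clone 3 against parental cells (0.66 ± 0.19, edgeR). With it the condensin genes had SEs of 0.09 to 0.19, and 0, 3 and 1 of them an unadjusted p under 0.05. The number of all genes called also moved with DESeq2 to 1715 at 4 h and 1471 between 24 and 48 h, with only the 2 groups to 477 between 24 and 48 h and 3 between the sublines, without the filter to 34, 1 and 30 in the untreated lines, and in TT-seq to 5374 with the block, 3539 with block and spike-in, 1 with spike-in sizes and 537 without number 1, against 1032.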

Other observations

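Noncoding RNAs next to 3 condensin genes rose after auxin. Over all genes tested, 21.5% were called higher at 24 h and 24.9% at 48 h. The noncoding RNAs were singled out after their values were seen, from the RefSeq neighbours within 1000 bases of a member. Scarna10, a noncoding RNA that overlaps Ncapd2, was tested and not called at these times. D430020J02Rik, beside Ncapg2, had 558, 502 and 557 counts at 0 h, 620, 648 and 658 at 4 h, 1525, 1478 and 1226 at 24 h, and 1425, 1513 and 1391 at 48 h. All libraries at 24 and 48 h lay above all others, with log2 fold changes of 1.26 ± 0.09 and 1.30 ± 0.09 against 0 h (edgeR, adjusted p = 3.03e-07 and 1.42e-07), while Ncapg2 was not called. Smc2os, beside Smc2, had 1 to 5 counts at 0 h, 11 to 14 at 24 h and 17 to 31 at 48 h (1.80 ± 0.49 and 2.66 ± 0.47, edgeR, adjusted p = 0.0093 and 0.00037), and Smc2 was not called. For 1600023N17Rik, beside Ncapg, counts were 9 to 11 at 0 h, 21 to 35 at 24 h and 22 to 32 at 48 h (1.39 ± 0.39 and 1.24 ± 0.39, edgeR, adjusted p = 0.011 and 0.0173). The values of Smc2os and 1600023N17Rik rest on few reads.

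Some coding neighbours were called at 24 h, in both directions, beside 43.0% of all genes called at that time. Mrpl51, a mitochondrial ribosomal protein gene beside Ncapd2, fell by 0.67 at 24 h and by 0.80 at 48 h on the log2 scale, and Sco2, a cytochrome oxidase assembly gene that overlaps Ncaph2, fell by 0.43 at 24 h while Ncaph2 rose. Ift80, an intraflagellar transport gene beside Smc4, rose by 0.68 at 24 h. Vps26b, a retromer gene beside Ncapd3, rose by 0.18 at 24 h and was not called at 48 h (0.13 ± 0.06). The coding neighbours Trim59, Lcorl, Tymp and Lmf2 were not called at 24 h, and Jam3 was not tested. Lmf2 was close to the threshold at 24 h (0.29 ± 0.11, edgeR, adjusted p = 0.0501) and was called with the replicate block (adjusted p = 0.0322). At 48 h, beside 49.5% of all genes called, Lcorl was lower (−0.60 ± 0.12, edgeR, adjusted p = 0.0011). Sco2 was also lower (−0.44 ± 0.11) and Ift80 higher (0.69 ± 0.13) at 48 h, and Trim59, Tymp and Lmf2 were not called.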
